A study of Mus musculus with 16 samples.

Results

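The collagen gene family was followed in tibialis anterior, a fast muscle at the front of the lower leg of the mouse. Its members were taken as every gene whose symbol reads Col, a number, a and a number, reached through the RefSeq accession that the array files give for each probe. The annotation (GRCm38.p6) names 44 such genes, of which 39 had a probe on the array, with 67 probes among the 41174 different probes of each array. Of these genes 36, with 59 probes, were well above background on at least 4 of the 16 arrays and entered the test, which covered 24826 genes. Col10a1 and Col28a1 reached that level on no array and Col6a6 on 1, and Col4a5 entered with 4. No probe was matched to Col6a3, Col6a5, Col12a1, Col20a1 or Col22a1, which were not analysed here.

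The study asked how undernutrition before birth alters gene expression in skeletal muscle. The 4 groups were as follows. Undernourished CR mice were calorie-restricted offspring of dams whose food was cut by 50% in week 3 of gestation, control CR mice were calorie-restricted offspring of dams without that cut, undernourished AL mice were offspring of food-restricted dams fed ad libitum, and control AL mice were offspring of dams without that cut, also fed ad libitum. Each group had 8 mice combined in pairs, so that an array carries a pool of 2 mice and a group has 4 arrays. Strain, age, sex and the extent of the calorie restriction were not given in the sources used here, and no allele or transgene is named for any group. The labels do not say whether the pools of a group came from separate litters, so p-values measure the spread between pools.

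Collagens are triple helices of polypeptide chains, and each kind of chain has its own gene. Fibrillar collagens such as types I and III form the tensile fibres of the connective tissue around and between muscle fibres and of tendon. Type IV forms the sheet of the basement membrane that wraps each muscle fibre, types XII, XIV and their relatives (FACIT, the fibril-associated collagens with interrupted triple helices) sit on fibril surfaces, and type VII anchors basement membranes to the matrix below. In muscle most fibrillar collagen is made by fibroblasts, and in a bulk sample fewer cells of a type and less RNA per cell cannot be told apart.

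Levels are given as log2 of the background-subtracted array signal minus that of the 75th percentile of its array, so that 1 unit is a doubling, and ± after a group mean is the SD of 4 arrays. A change is the difference between group means, with its standard error (SE) from limma, a linear model fitted to all 24826 genes, and a gene is called at a Benjamini-Hochberg adjusted p under 0.05. Levels of different genes are not set against each other, since each comes from its own probe.

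Markers of several other tissues differed between AL and CR arrays, and offspring diet lined up with slide and scan day. All AL arrays were scanned on 1 day, on slides 1 and 2, and all CR arrays on another, on slides 3 and 4, so that offspring diet and scan day cannot be told apart. An index of 24 brain markers, scaled to 1 on the highest array, was between 0.00657 and 0.00869 on the CR arrays. It was 0.221, 0.135, 0.129 and 0.0635 on the undernourished AL arrays and 1, 0.733, 0.197 and 0.121 on the control AL arrays. The corresponding index of 12 skin markers was 0.0411, 0.0435, 0.121 and 0.0451 on the undernourished AL arrays and 0.545, 1, 0.391 and 0.0557 on the control AL arrays. On the CR arrays it ran from 0.0241 to 0.0322 with the exception of undernourished CR replicate 2 at 0.134. Muscle fibre markers were well above background on every array, 10 of 10, and so were all 12 fibroblast markers with the exception of 1 on control CR replicate 4. That marker had no value there, so that the sum and median of that array leave it out. Muscle fibre markers had array medians of 8.82 to 9.14 in undernourished CR and 9.17 to 9.49 in undernourished AL, without overlap. In control offspring these were 8.87 to 9.14 in CR and 9.04 to 9.62 in AL, with overlap. The summed signal of the fibroblast markers, in multiples of the array's 75th percentile, was 230 to 350 in undernourished CR, 213 to 288 in control CR, 314 to 411 in undernourished AL and 265 to 445 in control AL. These markers were lower in calorie restriction by a median of 0.28 log2 units in undernourished and 0.36 in control offspring, with 2 of 12 and 4 of 12 called lower. The median level of these markers on an array did not overlap between diets, at 0.47 to 1.32 in undernourished CR, 0.90 to 1.33 in control CR, 1.51 to 1.74 in undernourished AL and 1.40 to 1.85 in control AL. Tendon, whose cells also make types I and III, had array medians over 8 markers of 0.15 to 0.96 in undernourished CR, -0.82 to 0.41 in control CR, 0.46 to 2.0 in undernourished AL and 0.87 to 1.22 in control AL. Of the 8 tendon markers, 1 was called higher and 0 lower in undernourished offspring, and 1 higher and 3 lower in control offspring. Called lower in control offspring, and not called in undernourished offspring, were 5 of 7 macrophage and 3 of 7 Schwann cell markers. Over all genes, 9.82% were called lower and 10.3% higher in undernourished offspring, and 15.1% lower and 16.8% higher in control offspring. Several of these marker counts are near those shares. The summed signal of 6 bone markers was higher in calorie restriction, at 3.77 to 6.86 in undernourished CR and 5.95 to 8.11 in control CR, against 2.15 to 2.94 in undernourished AL and 2.13 to 4.09 in control AL. Their array medians overlapped between diets, at -4.41 to -3.79 in undernourished CR and -4.31 to -3.91 in undernourished AL. In control offspring these medians were -4.53 to -2.82 in CR and -4.39 to -2.84 in AL. Endothelial markers had array medians of 1.34 to 1.90 in control CR and 0.89 to 1.29 in control AL, and overlapped in undernourished offspring. Their part in the changes below was not tested.

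Sequences before the start site are shown for the collagens called in the same direction under calorie restriction in both maternal groups, since these carry the result. Of 7 such genes 5 had an entry in the RefSeq promoter table (GRCm38.p6), namely Col1a2, Col3a1 and Col9a2, which were lower, and Col7a1 and Col23a1, which were higher. Col2a1 and Col5a2 were the others. Each run gives the 250 bases before the start that the promoter table uses, on the plus strand, at chr6:4505368-4505617, chr1:45311288-45311537, chr4:121039316-121039565, chr9:108953336-108953585 and chr11:51289670-51289919 in the order printed. The Col23a1 gene span in the annotation begins at 51289679, so that most of its window lies inside the annotated gene, while the other windows end just before their genes. Capitals mark matches on either strand to CCAAT (the CCAAT box), GGGCGG (the GC box) and TATAAA (the TATA box), which overlap nowhere in these runs.
Col1a2: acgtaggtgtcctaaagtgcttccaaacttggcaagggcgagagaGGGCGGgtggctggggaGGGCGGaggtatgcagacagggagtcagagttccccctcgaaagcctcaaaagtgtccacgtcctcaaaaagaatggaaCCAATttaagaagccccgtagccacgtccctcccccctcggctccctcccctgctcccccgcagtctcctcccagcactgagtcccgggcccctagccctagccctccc
Col3a1: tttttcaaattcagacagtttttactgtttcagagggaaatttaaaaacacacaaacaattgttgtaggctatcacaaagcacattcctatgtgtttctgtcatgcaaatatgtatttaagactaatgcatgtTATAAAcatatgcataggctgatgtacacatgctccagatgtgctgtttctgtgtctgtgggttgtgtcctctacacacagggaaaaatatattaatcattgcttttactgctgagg
Col9a2: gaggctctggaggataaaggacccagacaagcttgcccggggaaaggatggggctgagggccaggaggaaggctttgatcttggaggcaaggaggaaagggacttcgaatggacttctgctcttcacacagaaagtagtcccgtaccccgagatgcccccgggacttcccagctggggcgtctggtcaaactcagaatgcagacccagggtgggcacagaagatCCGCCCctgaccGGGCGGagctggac
Col7a1: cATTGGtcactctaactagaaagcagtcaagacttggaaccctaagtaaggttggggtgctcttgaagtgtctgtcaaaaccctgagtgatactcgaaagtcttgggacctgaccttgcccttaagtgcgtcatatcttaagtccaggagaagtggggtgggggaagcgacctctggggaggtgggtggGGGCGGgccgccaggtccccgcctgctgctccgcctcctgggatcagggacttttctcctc
Col23a1: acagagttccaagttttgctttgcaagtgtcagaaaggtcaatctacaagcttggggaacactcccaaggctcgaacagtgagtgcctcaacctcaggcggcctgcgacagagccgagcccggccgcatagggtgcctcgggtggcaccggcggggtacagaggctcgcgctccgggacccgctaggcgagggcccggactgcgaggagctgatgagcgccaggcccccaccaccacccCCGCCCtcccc
A CCAAT box was found in the windows of Col1a2 and Col7a1, a GC box in Col1a2, Col9a2, Col7a1 and Col23a1, and a TATA box in Col3a1 alone among the 5. Over 32851 promoter windows of this length the CCAAT box was in 33.8%, the GC box in 32.7% and the TATA box in 12.4%. In the 32 windows of the 29 tested collagens with an entry, these were 13, 20 and 4 windows (40.6%, 62.5% and 12.5%). Col3a1 was the A- and T-rich exception, with 35.2% G and C and 0 CG pairs, while the other 4 windows had 56.4% to 66.0% G and C.

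The chains of the main fibrillar collagens were lower in calorie-restricted muscle. In undernourished offspring limma called 9 of the 36 collagens (20.1% of all genes tested were called), 7 lower (9.82% of all genes) and 2 higher (10.3% of all genes). In control offspring it called 16 of 36 (31.9% of all genes), 11 lower (15.1% of all genes) and 5 higher (16.8% of all genes). The lower share was above that of all genes and the higher share was not. Among the 11 fibrillar genes, 5 were called lower and 0 higher in undernourished offspring, and 7 lower and 1 higher in control offspring. The median change of the 36 collagens was -0.36 in undernourished and -0.46 in control offspring, against -0.00 and 0.06 over all genes. However, it was 0.09 and 0.01 in the authors' deposited table and 0.26 and 0.05 with arrays scaled to the fibroblast markers. That scaling left control CR replicate 4 without values, so that its control value rests on the other control CR arrays. All CR arrays lay below all AL arrays for 6 collagens in undernourished (12.6% of all genes) and 12 in control offspring (14.6% of all genes), and above them for 5 (13.4% of all genes) and 5 (17% of all genes). The 5 genes called lower in both were Col1a2, Col2a1, Col3a1, Col5a2 and Col9a2. They make up 71.4% of the lower calls in undernourished and 45.5% of those in control offspring. The 2 comparisons share no array, but both also set the same 2 scan days against each other and use 1 estimate of the spread. Of the 36 genes 30 had values of the same sign in both. The corresponding shares over all genes, for signs and for shared calls, are not given here, so this agreement is not shown to be particular to collagens. The 6 with opposite signs were Col4a4, Col6a1, Col9a3, Col11a2, Col17a1 and Col25a1, none of them called in either.

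**Figure D1:**
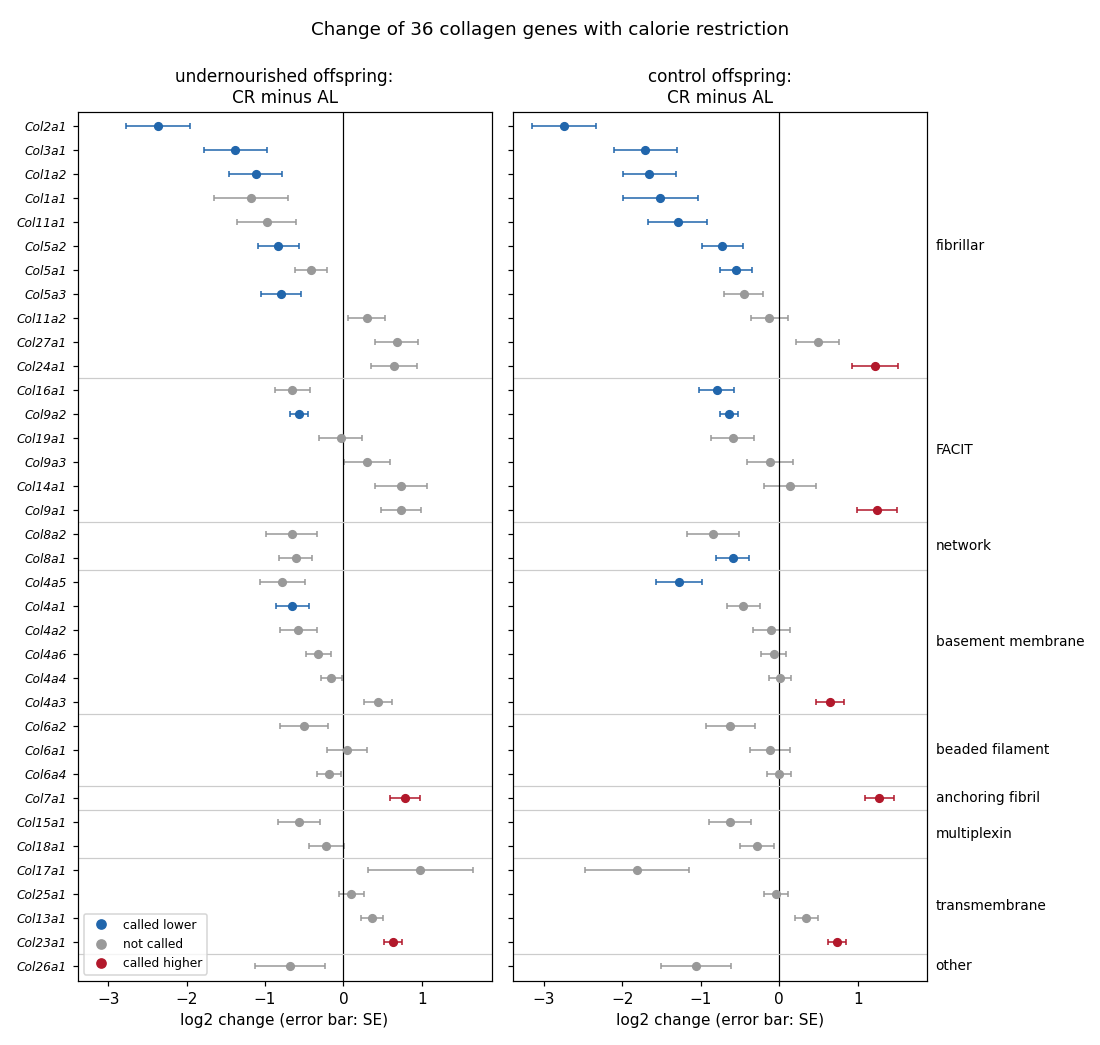
Change in log2 signal with calorie restriction for the 36 collagens, grouped by type, in undernourished (left) and control offspring (right). Each point is the difference between 4 CR and 4 AL arrays with its standard error. Most called fibrillar genes lie below 0, with Col2a1 lowest in both panels at -2.36 in undernourished and -2.74 in control offspring, and Col7a1 and Col23a1 lie above 0 in both; scaled to fibroblast markers, the called change of Col9a2 in undernourished offspring turns to 0.05.

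Col2a1, the chain of type II collagen and best known from cartilage, had the largest change of the family where each gene is read from its brightest probe. In replicate order it stood at -1.67, -2.34, -1.22 and -2.59 in undernourished CR muscle and at -1.53, -2.42, -2.02 and -1.29 in control CR muscle. It stood at 0.94, 0.95, -0.47 and 0.20 in undernourished AL muscle and at 0.40, 0.47, 0.99 and 1.86 in control AL muscle. Every CR array was below every AL array, in both maternal groups. The change was -2.36 ± 0.41 in undernourished offspring (adjusted p = 0.00146) and -2.74 ± 0.41 in control offspring (adjusted p = 0.000248), which left 19.5% and 14.9% of the AL signal. A second Col2a1 probe gave a smaller change, -0.35 in undernourished and -0.59 in control offspring, and with the mean over probes Col2a1 changed by -1.36 in undernourished and -1.66 in control offspring, less than Col1a1 at -1.90 in undernourished and -2.33 in control offspring. Of the 4 tested cartilage markers none was called in undernourished (20.1% of all genes called) and 1 was called lower in control offspring (15.1% of all genes).

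Types I and III, the bulk of the fibres around muscle, were lower as well. Col3a1, the single chain of type III collagen, was 2.89, 2.52, 3.04 and 1.92 in undernourished CR and 4.53, 4.52, 3.04 and 3.79 in undernourished AL muscle. It was 3.03, 2.17, 2.53 and 3.41 in control CR and 4.11, 4.02, 4.39 and 5.46 in control AL muscle. The groups did not overlap in control offspring, while in undernourished offspring replicate 3 stood at 3.04 in both diets. The changes were -1.38 ± 0.40 (adjusted p = 0.0254) in undernourished and -1.71 ± 0.40 (adjusted p = 0.00478) in control offspring. The call in undernourished offspring was lost without replicate 1 or 2 of undernourished AL, or replicate 2 or 4 of undernourished CR, with adjusted p up to 0.0727, and with slide as a random block the adjusted p of Col3a1 was 0.0545. That call was also lost in the authors' deposited table and with arrays scaled to the fibroblast markers.

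Col1a2, the minor chain of type I, was 4.38, 3.92, 4.55 and 3.94 in undernourished CR and 5.35, 6.15, 5.04 and 4.72 in undernourished AL muscle. It was 4.47, 3.42, 4.12 and 4.80 in control CR and 5.53, 5.59, 5.81 and 6.53 in control AL muscle. No CR array reached the AL arrays of its maternal group. The signal was 46.0% of AL in undernourished (-1.12 ± 0.34, adjusted p = 0.0295) and 31.7% of AL in control offspring (-1.66 ± 0.34, adjusted p = 0.00193). Leaving out any of those same 4 undernourished arrays ended the undernourished call, with adjusted p up to 0.0875, and with slide as a random block the adjusted p of Col1a2 was 0.0591. The undernourished call was also lost in the authors' deposited table and with arrays scaled to muscle fibre or fibroblast markers.

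Col1a1, the major chain of type I, was 3.42, 2.41, 3.41 and 2.98 in undernourished CR and 4.72, 5.24, 3.65 and 3.33 in undernourished AL muscle, where replicate 4 lay within the CR range. It was 3.67, 2.23, 3.09 and 4.26 in control CR and 4.38, 4.36, 4.95 and 5.61 in control AL muscle, with no overlap. The undernourished value was -1.18 ± 0.47 (adjusted p = 0.0914), and the fall in control offspring passed the test (-1.52 ± 0.47, adjusted p = 0.0242). Both further Col1a1 probes gave larger changes, -1.85 and -2.67 in undernourished and -2.17 and -3.32 in control offspring, and both were called in each comparison in a fit over all probes. Without control AL replicate 4, control CR replicate 2 or control CR replicate 3 the Col1a1 call in control offspring was lost, with adjusted p up to 0.0829. It was also lost in the authors' deposited table and with the brain index, alone or with the skin index, as a covariate. The control AL array with the highest Col1a1, Col1a2, Col3a1 and Col2a1, replicate 4, had the lowest brain and skin indices of its group.

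**Figure D2:**
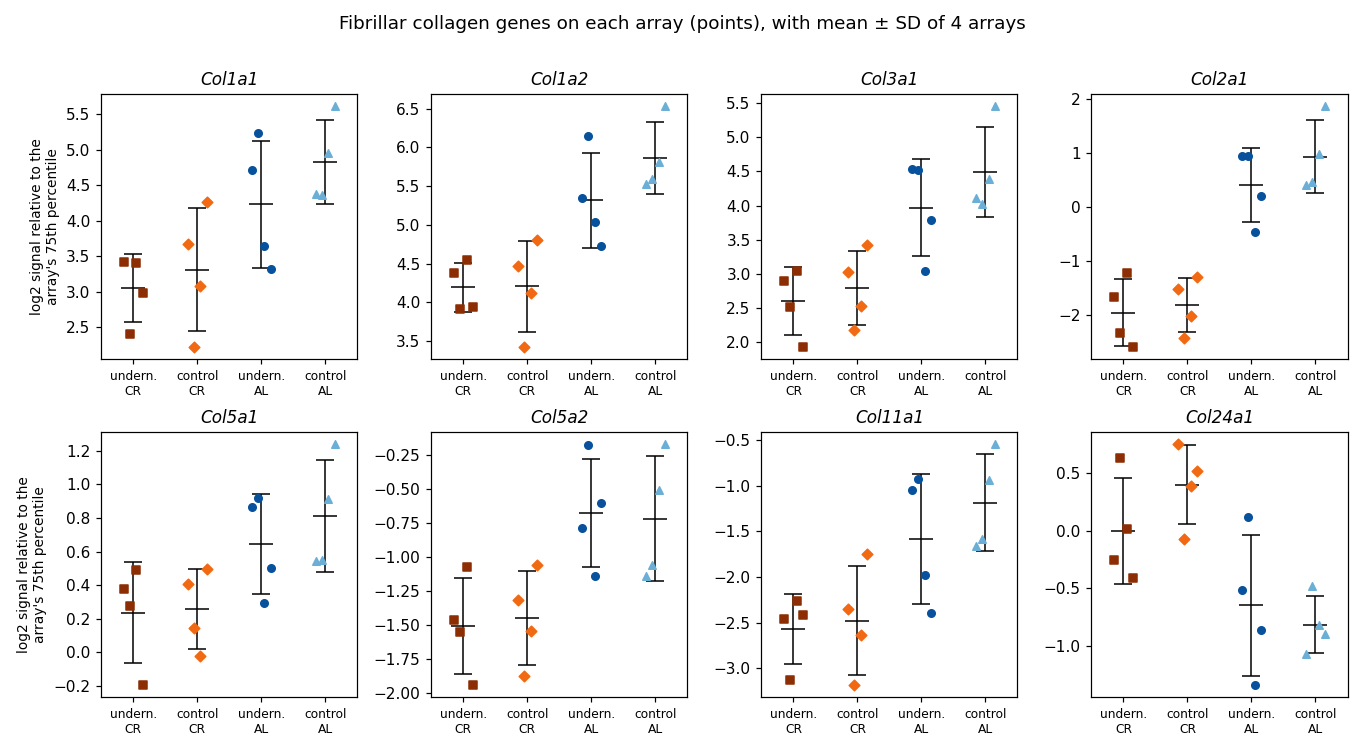
Log2 signal of 8 fibrillar collagens on each array, relative to the array's 75th percentile, in the 4 groups of 4 arrays; points are arrays, the bar is the mean and the whiskers 1 SD. Col1a1 stood lowest at 2.23 in control CR replicate 2 and highest at 5.61 in control AL replicate 4, and for Col24a1 the CR arrays of control offspring lay above the AL arrays.

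The minor fibrillar chains, which regulate the width of type I fibrils, showed smaller changes. Col5a2 was called lower in both comparisons, by -0.83 ± 0.26 in undernourished (adjusted p = 0.0377) and -0.73 ± 0.26 in control offspring (adjusted p = 0.0466), although the arrays of the diets overlapped in both. Col5a1 had -0.41 ± 0.20 in undernourished offspring and was called in control offspring (-0.56 ± 0.20, adjusted p = 0.0493). Col5a3 was called in undernourished offspring (-0.80 ± 0.25, adjusted p = 0.0364) and had -0.46 ± 0.25 in control offspring, while a further Col5a3 probe was called in both, at -1.28 in undernourished and -1.18 in control offspring. With slide as a random block no call of Col5a1, Col5a2 or Col5a3 held. Nor did any of them hold in the authors' deposited table or with arrays scaled to muscle fibre or fibroblast markers. These calls lie close to the threshold: on leaving out 1 array at a time, Col5a1 kept its call in 5 of 16 fits, Col5a2 in 10 of 16 in undernourished and 7 of 16 in control offspring, and Col5a3 in 11 of 16. The highest adjusted p in those fits was 0.134 for Col5a1, 0.108 and 0.136 for Col5a2 and 0.0967 for Col5a3. The undernourished calls were lost without undernourished AL replicates 1, 2 or 4 or undernourished CR replicates 1 or 4, and that of Col5a2 also without undernourished CR replicate 2. Control AL replicates 3 and 4 and control CR replicates 1, 2 and 3 were among the arrays whose removal ended the control calls of Col5a1 and Col5a2, the others being undernourished arrays that enter through the shared spread. Col11a1, a chain of the cartilage type XI, had a value of -0.98 ± 0.37 (adjusted p = 0.0767) in undernourished offspring and was lower in control offspring (-1.30 ± 0.37, adjusted p = 0.0159). Without control CR replicate 2 its adjusted p in control offspring was 0.0556. Its partner Col11a2 was not called in either, at 0.30 ± 0.24 in undernourished and -0.13 ± 0.24 in control offspring.

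Col24a1, a fibrillar collagen described in developing bone, went the other way. In undernourished offspring the value was 0.65 ± 0.29 (adjusted p = 0.130) and the groups overlapped. In control offspring it averaged 0.40 ± 0.34 in CR and -0.82 ± 0.25 in AL muscle (SD, n = 4 each), with every CR array above the AL arrays, a rise of 1.22 ± 0.29 by limma (adjusted p = 0.00548). A further Col24a1 probe gave 0.06 in undernourished and 0.94 in control offspring. The call in control offspring was lost with the brain index, alone or with the skin index, as a covariate. Col27a1, the remaining fibrillar gene, had values of 0.68 ± 0.27 in undernourished and 0.49 ± 0.27 in control offspring, with neither called.

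Among the FACIT collagens the chains of type IX separated. Type IX collagen decorates type II fibrils and is built from the products of Col9a1, Col9a2 and Col9a3. Col9a1 was -2.42, -2.84, -2.23 and -2.60 in undernourished CR and -3.01, -3.23, -3.38 and -3.41 in undernourished AL muscle. It was -1.76, -2.44, -2.75 and -2.43 in control CR and -4.37, -3.45, -3.55 and -2.99 in control AL muscle. The CR arrays lay above the AL arrays in both maternal groups, with 0.73 ± 0.26 (adjusted p = 0.0598) in undernourished offspring and a called rise of 1.25 ± 0.26 (adjusted p = 0.00243) in control offspring. That call was lost with the brain index, the skin index or both as covariates. The lowest Col9a1 array, control AL replicate 1, had the highest brain index.

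Col9a2 was -1.88, -2.04, -1.79 and -2.03 in undernourished CR and -1.47, -1.41, -1.34 and -1.25 in undernourished AL muscle. It was -2.03, -1.89, -1.79 and -1.70 in control CR and -1.04, -1.09, -1.35 and -1.33 in control AL muscle. Its groups did not overlap either, in the opposite direction unless scaled to the fibroblast markers (0.05 in undernourished offspring), with changes of -0.57 ± 0.11 (adjusted p = 0.00378) in undernourished and -0.65 ± 0.11 (adjusted p = 0.000821) in control offspring. Both genes rest on 1 passing probe each. Col9a3 was not called, at 0.30 ± 0.29 in undernourished and -0.12 ± 0.29 in control offspring, and was well above background on 1 of 4 undernourished AL arrays.

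Col16a1, a FACIT collagen of fibroblasts and smooth muscle, was 0.29, 0.01, 0.56 and -0.07 in undernourished CR and 1.19, 1.31, 0.58 and 0.32 in undernourished AL muscle, which overlapped. It was 0.68, 0.23, 0.29 and 0.76 in control CR and 1.30, 1.0, 1.54 and 1.31 in control AL muscle, without overlap. The change was -0.65 ± 0.22 (adjusted p = 0.0522) in undernourished offspring and was called in control offspring (-0.80 ± 0.22, adjusted p = 0.0138). The control call of Col16a1 was lost with the brain index, the skin index or both as covariates. It was also lost in the authors' deposited table and with arrays scaled to muscle fibre or fibroblast markers. Col14a1 had changes of 0.73 ± 0.33 in undernourished and 0.14 ± 0.33 in control offspring, neither called. For Col19a1 the 3 probes disagreed: the one with the highest signal gave -0.04 and -0.59 in undernourished and control offspring, another gave 1.27 in undernourished offspring (adjusted p = 0.00393 over all probes) and 0.28 in control offspring, and the third gave -0.41 in undernourished offspring and -1.16 in control offspring (adjusted p = 0.0172 over all probes).

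Type VII collagen, the anchoring fibril, was higher with calorie restriction in both maternal groups. Its gene Col7a1 was 3.54, 3.55, 3.65 and 3.42 in undernourished CR and 2.98, 2.81, 2.41 and 2.82 in undernourished AL muscle. It was 3.92, 3.69, 3.37 and 3.60 in control CR and 2.0, 2.13, 2.43 and 2.92 in control AL muscle. All CR arrays lay above all AL arrays. The rise was 0.79 ± 0.19 (adjusted p = 0.0100) in undernourished and 1.27 ± 0.19 (adjusted p = 0.000240) in control offspring, or 172% of the AL signal in undernourished and 242% in control offspring.

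Col23a1, a transmembrane collagen, was -1.38, -1.48, -1.66 and -1.55 in undernourished CR and -2.16, -2.19, -2.11 and -2.10 in undernourished AL muscle. It was -1.49, -1.12, -1.50 and -1.21 in control CR and -2.15, -2.05, -1.90 and -2.16 in control AL muscle. The groups were separate in both, by 0.63 ± 0.11 (adjusted p = 0.00198) in undernourished and 0.74 ± 0.11 (adjusted p = 0.000322) in control offspring. Both further Col23a1 probes also had positive values, with 0 of them called in undernourished and 1 in control offspring. With another background correction (normexp) the Col23a1 call was lost in both comparisons, with a limma adjusted p of 0.494 in undernourished offspring. Over 19 settings its values went down to 0.09 in undernourished and 0.25 in control offspring. Of the other transmembrane members, Col13a1, a collagen of the neuromuscular junction, had values of 0.36 ± 0.14 (adjusted p = 0.0875) in undernourished and 0.34 ± 0.14 (adjusted p = 0.0822) in control offspring, and Col25a1, which muscle needs for its motor innervation, 0.10 ± 0.16 in undernourished and -0.04 ± 0.16 in control offspring.

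**Figure D3:**
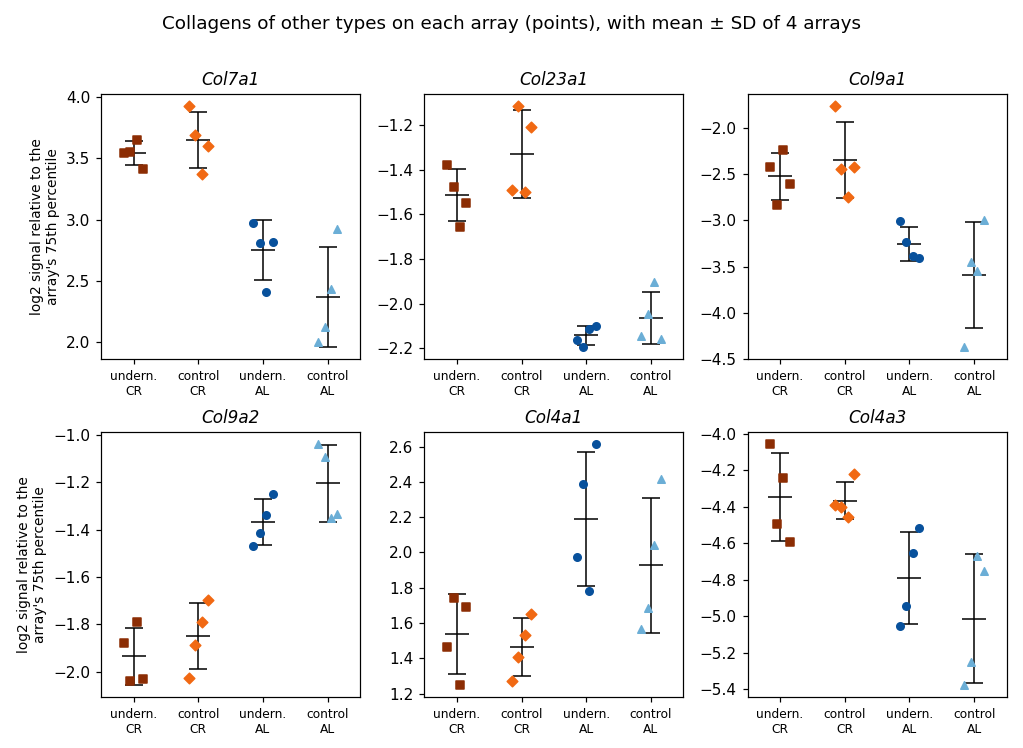
Log2 signal of 6 collagens of other types on each array, relative to the array's 75th percentile, in 4 groups of 4 arrays, with mean and SD. For Col7a1 and Col23a1 every CR array is above every AL array, Col9a1 and Col9a2 separate in opposite directions, and Col4a1 and Col4a3 differ less; under another background correction (normexp) the change of Col4a3 in control offspring was -0.12.

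Of the 6 basement membrane collagens, 5 were below 0 in undernourished offspring (median -0.45, against -0.00 over all genes) and 4 in control offspring (median -0.09, against 0.06 over all genes), with 1 called lower in undernourished offspring, and 1 lower and 1 higher in control offspring. Col4a1 and Col4a2 encode the chains of the ubiquitous type IV network and lie side by side on chromosome 8, where their annotated spans overlap. Col4a1 was 1.47, 1.74, 1.25 and 1.69 in undernourished CR and 1.97, 2.39, 1.78 and 2.61 in undernourished AL muscle, without overlap. It was 1.27, 1.41, 1.53 and 1.65 in control CR and 1.57, 1.68, 2.04 and 2.42 in control AL muscle, with overlap. The call was in undernourished offspring alone (-0.65 ± 0.21, adjusted p = 0.0405, kept in 10 of 16 fits that each left out 1 array), against -0.46 ± 0.21 (adjusted p = 0.108) in control offspring. It was lost without undernourished AL replicates 2 or 4, undernourished CR replicates 1 or 3 or, through the shared spread, control CR replicates 2 or 3 (adjusted p up to 0.117), and with slide as a random block the adjusted p of Col4a1 was 0.0712. Col4a2 had -0.58 ± 0.24 in undernourished and -0.10 ± 0.24 in control offspring, neither called.

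Col4a3, a chain of the type IV network of kidney and lung, was -4.06, -4.49, -4.24 and -4.59 in undernourished CR and -5.05, -4.94, -4.65 and -4.51 in undernourished AL muscle. It was -4.39, -4.40, -4.45 and -4.22 in control CR and -5.38, -5.25, -4.67 and -4.75 in control AL muscle. The undernourished value was 0.44 ± 0.18 (adjusted p = 0.0940), and in control offspring, where the groups did not overlap, it was called higher (0.65 ± 0.18, adjusted p = 0.0131), a sign that normexp turned (-0.12). The control call was also lost with the brain index, the skin index or both as covariates, and without control AL replicates 1 and 2 together. Col4a4, the neighbour of Col4a3, had values of -0.15 ± 0.14 in undernourished and 0.01 ± 0.14 in control offspring.

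Col4a5 was close to background. It was -7.44, -6.57, -7.07 and -6.27 in undernourished CR and -5.84, -5.80, -6.36 and -6.22 in undernourished AL muscle. It was -7.38, -6.02, -7.15 and -7.18 in control CR and -5.63, -5.40, -5.70 and -5.86 in control AL muscle. The fit called it lower in control offspring (-1.28 ± 0.29, adjusted p = 0.00391), but the probe was well above background on 2 undernourished CR arrays, 1 control CR array, 0 undernourished AL arrays and 1 control AL array. Its change thus sets values near background against each other, although it counts among the 11 lower calls in control offspring. Col4a6, its partner on the X chromosome, had values of -0.32 ± 0.16 in undernourished and -0.07 ± 0.16 in control offspring.

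Of the remaining types Col8a1 alone was called. In the type VIII network, which endothelium and smooth muscle lay down, Col8a1 was 0.66, 0.55, 0.72 and 0.54 in undernourished CR and 1.35, 1.26, 0.95 and 1.35 in undernourished AL muscle. It was 0.70, 0.83, 0.16 and 0.87 in control CR and 0.97, 0.71, 1.52 and 1.74 in control AL muscle. In undernourished offspring the groups did not overlap, at -0.61 ± 0.21 (adjusted p = 0.0552). The call was in control offspring (-0.60 ± 0.21, adjusted p = 0.0438, and 0.0724 for Col8a1 with slide as a random block), where the groups overlapped and 5 of 16 fits without 1 array kept it, those ending it including removal of control AL replicates 3 or 4 and control CR replicates 1, 2 or 3 (adjusted p up to 0.140). Col8a2 had -0.66 ± 0.33 in undernourished and -0.85 ± 0.33 in control offspring, neither called.

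Type VI collagen forms beaded filaments around muscle fibres, and its loss causes muscle disease in humans. Col6a1 was 0.45, 0.31, 0.61 and -0.46 in undernourished CR and 0.40, 0.71, -0.42 and 0.02 in undernourished AL muscle. It was 0.45, 0.06, 0.06 and 0.56 in control CR and 0.26, 0.22, 0.51 and 0.58 in control AL muscle. The groups overlapped throughout, with differences of 0.05 ± 0.25 in undernourished and -0.11 ± 0.25 in control offspring. Col6a2 had -0.50 ± 0.31 in undernourished and -0.63 ± 0.31 in control offspring (adjusted p = 0.268 and 0.139), and Col6a4 -0.19 ± 0.15 in undernourished and -0.01 ± 0.15 in control offspring. A second Col6a4 probe was called lower in both, at -0.49 in undernourished and -0.51 in control offspring (adjusted p = 0.0403 and 0.0217 over all probes).

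The multiplexins Col15a1 and Col18a1 lie in basement membranes. Col18a1, whose product is the source of endostatin, was 0.32, 0.06, 0.33 and -0.68 in undernourished CR and 0.45, 0.25, -0.04 and 0.24 in undernourished AL muscle. It was 0.17, 0.01, -0.24 and 0.45 in control CR and 0.27, 0.09, 0.47 and 0.69 in control AL muscle. The groups overlapped in both, at -0.22 ± 0.22 in undernourished and -0.28 ± 0.22 in control offspring. Col15a1 had -0.57 ± 0.27 in undernourished and -0.63 ± 0.27 in control offspring, neither called.

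Col26a1, a collagen described in testis and ovary, was -2.80, -3.44, -3.11 and -4.48 in undernourished CR and -1.58, -2.47, -3.48 and -3.58 in undernourished AL muscle. It was -3.17, -3.27, -3.24 and -2.71 in control CR and -1.32, -1.75, -2.57 and -2.50 in control AL muscle, without overlap. Neither value passed the test, at -0.68 ± 0.44 in undernourished and -1.06 ± 0.44 in control offspring (adjusted p = 0.296 and 0.0820). Its highest control AL values, replicates 1 and 2, were those of the arrays with the highest brain index.

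In the fit without a term for slide, no collagen was called for maternal undernutrition. With slide as a fixed block 3 were called in AL offspring, namely Col9a3, Col17a1 and Col19a1. Undernourished AL was set against control AL and undernourished CR against control CR, and limma called 0 of 36 collagens in either, where it called 0.0322% (0.0121% higher and 0.0201% lower) and 0% of all genes. The arrays of the maternal groups were separate for 0 collagens, in AL offspring (2.78% of all genes higher, 2.23% lower) and in CR offspring (1.31% higher, 1.41% lower). At an unadjusted p under 0.05 there were 4 collagens in AL offspring and 0 in CR offspring. The share of all genes at that threshold is not given here, so these and the following unadjusted counts cannot be set against it. The median change of the 36 collagens was -0.16 in AL and -0.09 in CR offspring, against 0.07 and -0.00 over all genes. These comparisons use the same arrays as the calorie restriction comparisons. Averaged over the offspring diets, 0 of 36 were called (0% of all genes called) and 5 had an unadjusted p under 0.05. The test of whether calorie restriction acted differently with maternal diet called 0 of 36 (0.00403% of all genes called), and 1 had an unadjusted p under 0.05. With all arrays and without a term for slide, no difference between the maternal groups was thus shown for any collagen, including those called in 1 of them alone.

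The 4 genes in AL offspring were Col9a3, Col11a2, Col17a1 and Col19a1. Col17a1, which anchors skin epithelium to its basement membrane, had the largest difference. It was -3.66, -3.52, -2.33 and -3.76 in undernourished AL and -0.16, 1.05, -0.29 and -3.10 in control AL muscle. The CR values were -2.46, -1.38, -2.08 and -3.42 in undernourished and -2.24, -2.55, -2.61 and -2.36 in control offspring. The undernourished and control AL groups overlapped at control AL replicate 4, and the difference was -2.69 ± 0.67 (adjusted p = 0.146). Control AL replicates 1, 2 and 3, high in Col17a1, were those with a skin index of 0.391 or more. Undernourished CR replicate 2, the highest Col17a1 array among the CR arrays at -1.38, had the highest skin index of those arrays. The difference stood at -4.04 within slide 1 and -1.35 within slide 2. Without control AL replicate 4 it was -3.52 (adjusted p = 0.00201), Col19a1 and Col7a1 were called too (adjusted p = 0.0293 and 0.0447), and the difference of the calorie restriction effect between maternal groups was 3.62 (adjusted p = 0.0233), against 2.80 ± 0.94 (adjusted p = 0.495) with it. The part of skin transcripts in these values was not tested.

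Col19a1, described in muscle and brain, was -3.26, -3.28, -2.97 and -3.58 in undernourished AL and -1.71, -2.05, -2.98 and -3.15 in control AL muscle (-0.80 ± 0.27, adjusted p = 0.162). The higher control AL values, in replicates 1 and 2, were on the arrays with brain indices of 1 and 0.733. Between undernourished AL and control AL muscle, Col11a2 differed by -0.63 ± 0.24 (adjusted p = 0.179) and Col9a3 by -0.73 ± 0.29 (adjusted p = 0.196). Since Col9a3 was well above background on 1 of 4 undernourished AL arrays, the size of its difference rests on values near background. With slide as a fixed block, Col9a3, Col17a1 and Col19a1 were called, with adjusted p of 0.0498, 0.0286 and 0.0489.

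**Figure D4:**
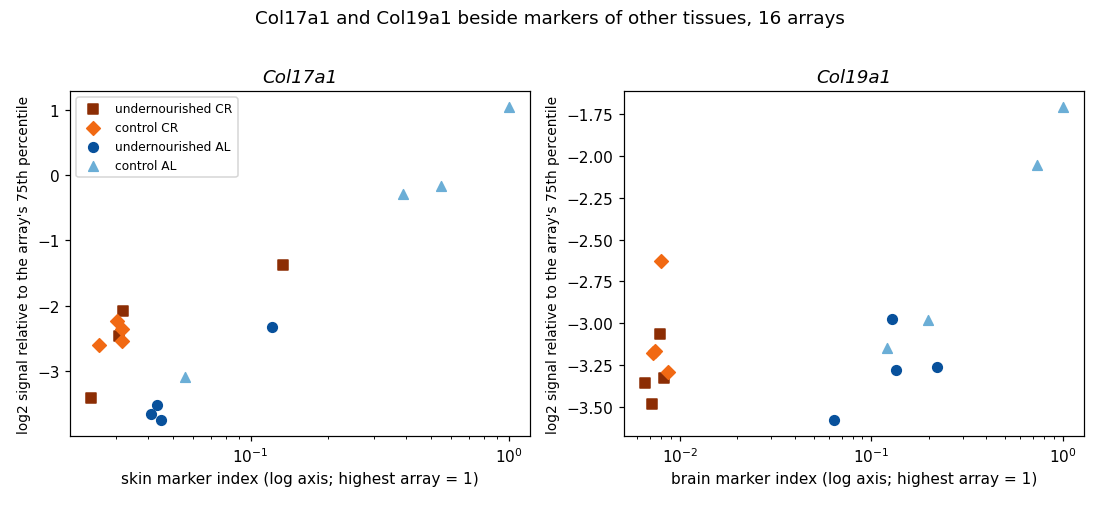
Log2 signal of Col17a1 against the skin index (left) and of Col19a1 against the brain index (right), each array 1 point, index on a log axis scaled to 1 on the highest array. Col17a1 lies between -0.29 and 1.05 on the control AL arrays with skin indices of 0.391 to 1, and Col19a1 is highest on those with brain indices of 0.733 and 1.

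Genes that make, join, process and bind collagen were read from the same fit, in lists assembled from textbook roles. Over all genes, 10.3% were called higher and 9.82% lower in undernourished offspring, and 16.8% higher and 15.1% lower in control offspring, and several of the counts below are near or under those shares. The enzymes and chaperones of chain folding, 21 tested, had 3 called higher (14.3%) and 1 lower (4.76%) in undernourished and 5 higher (23.8%) and 2 lower (9.52%) in control offspring, with medians of -0.01 in undernourished and 0.22 in control offspring. Fkbp14, a prolyl isomerase of the endoplasmic reticulum, rose by 1.21 ± 0.15 (adjusted p = 0.000197) in undernourished and 0.91 ± 0.15 (adjusted p = 0.000567) in control offspring. Crtap, part of the prolyl 3-hydroxylation complex, rose by 0.51 ± 0.13 in undernourished and 0.49 ± 0.13 in control offspring. P3h4, a partner of lysyl hydroxylation, fell by 0.93 ± 0.18 in undernourished and 0.97 ± 0.18 in control offspring, and P3h3 had -0.39 ± 0.19 in undernourished offspring and fell by 0.66 ± 0.19 in control offspring. Of 9 genes for propeptide cleavage and cross-linking, 1 was called lower in undernourished and 2 in control offspring: Adamts2, the procollagen N-proteinase, fell by 0.66 ± 0.17 in undernourished and 0.54 ± 0.17 in control offspring, and the lysyl oxidase Loxl2 had -0.88 ± 0.31 (adjusted p = 0.0613) in undernourished offspring and fell by 0.93 ± 0.31 in control offspring.

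Of 14 proteoglycans and glycoproteins that bind fibrils, 2 were called lower in undernourished (14.3%) and 3 in control offspring (21.4%) and none higher, at medians of -0.33 in undernourished and -0.61 in control offspring. Thbs1, a thrombospondin, fell by 1.46 ± 0.36 in undernourished and 1.06 ± 0.36 in control offspring. Dpt, dermatopontin, fell by 1.15 ± 0.31 in undernourished and 0.93 ± 0.31 in control offspring, and Dcn, decorin, had -0.23 ± 0.21 in undernourished offspring and fell by 0.70 ± 0.21 in control offspring. Dpt and Dcn also stand among the fibroblast markers. Of 10 basement membrane partners of type IV, Lama4, a laminin chain of vessels, rose by 0.74 ± 0.18 in undernourished and 0.84 ± 0.18 in control offspring. Lama5, another laminin chain, had 0.36 ± 0.15 (adjusted p = 0.113) in undernourished offspring and rose by 1.09 ± 0.15 in control offspring. Nid1, which links laminin to type IV collagen, fell by 0.63 ± 0.18 in undernourished and 0.50 ± 0.18 in control offspring. However, scaling to the fibroblast markers, which left out control CR replicate 4, brought the value in control offspring to 0.00.

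Of 18 genes for collagen breakdown and its control, 1 was called higher and 1 lower in undernourished (5.56% each), and 2 higher (11.1%) and 4 lower (22.2%) in control offspring. The membrane protease Mmp14 fell by 1.03 ± 0.24 (adjusted p = 0.00955) in undernourished and 1.25 ± 0.24 (adjusted p = 0.00160) in control offspring. Ctsk, a cathepsin that digests collagen, had -0.81 ± 0.28 (adjusted p = 0.0544) in undernourished offspring and fell by 1.22 ± 0.28 in control offspring. Mmp3, stromelysin, had -1.25 ± 0.50 in undernourished offspring and fell by 1.46 ± 0.50 in control offspring. Mmp8, a collagenase of neutrophils, is among the higher calls but was well above background on all CR arrays and on none of the AL arrays, so that it entered the test only through the group where it is high and its call supports nothing. With the normexp background correction its sign was negative, at -0.09 in undernourished and -0.24 in control offspring. Of the 8 collagen receptors 2 were called lower in undernourished offspring, and 1 higher and 1 lower in control offspring. Lair1, an inhibitory receptor of leukocytes, fell by 1.97 ± 0.60 in undernourished and 3.16 ± 0.60 in control offspring, and its highest values, -1.55 and -1.78, were on control AL replicates 1 and 2. Itga11, the integrin chain of fibroblasts, fell by 0.92 ± 0.26 in undernourished offspring, with -0.59 ± 0.26 in control offspring. Itgb1, its partner, had 0.13 ± 0.16 in undernourished offspring and rose by 0.47 ± 0.16 in control offspring, but stood at -0.01 in control offspring without the 5 arrays highest in skin markers.

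Of 17 ligands, receptors and targets of TGF-beta, a growth factor that drives collagen transcription, none was called higher and 2 lower in undernourished offspring (11.8%) and 3 were called higher (17.6%) and 1 lower (5.88%) in control offspring. Smad3, a signal transducer, had 0.53 ± 0.23 in undernourished offspring and rose by 1.09 ± 0.23 in control offspring. Tgfb2, a ligand, had 0.41 ± 0.26 in undernourished offspring and rose by 0.96 ± 0.26 in control offspring. The inhibitor Smad7 fell by 0.67 ± 0.17 in undernourished offspring and had -0.31 ± 0.17 in control offspring. Ltbp1, a latent TGF-beta binding protein, fell by 0.68 ± 0.20 in undernourished offspring and had -0.11 ± 0.20 in control offspring. None of the genes in these lists was called in a maternal comparison.

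Several of these calls rest on single arrays. On leaving out 1 array at a time, the control offspring calls of Adamts2 and Dcn were kept in 12 of 16 fits, those of Dpt, Loxl2 and Thbs1 in 11, that of Itgb1 in 12, that of Mmp3 in 10 and that of Nid1 in 4, with adjusted p up to 0.126. The arrays whose removal ended them were control AL replicates 1 (Dpt, Itgb1, Mmp3, Thbs1), 2 (Itgb1), 3 (Adamts2, Dcn, Dpt, Loxl2, Mmp3, Nid1, Thbs1) and 4 (Adamts2, Loxl2, Mmp3, Nid1), control CR replicates 1 (all 8), 2 (Dcn, Dpt, Loxl2, Mmp3, Nid1, Thbs1), 3 (all but Itgb1) and 4 (Itgb1, Nid1) and, for Nid1, also 6 undernourished arrays. In undernourished offspring Itga11 kept its call in 12 of 16 fits, Ltbp1 in 11, Lair1 in 10 and Nid1 in 13, with adjusted p up to 0.0823. These calls ended on removal of undernourished AL replicates 1 (Itga11, Lair1), 2 (all 4), 3 (Lair1) and 4 (Ltbp1, Nid1), or undernourished CR replicates 1 (Itga11, Lair1, Ltbp1), 2 (Lair1, Ltbp1), 3 (Ltbp1) and 4 (Itga11, Lair1, Nid1). With slide as a random block, the control offspring calls of Dpt, Loxl2, Mmp3, Nid1 and Thbs1 did not hold. Over the 19 settings the control offspring calls of Mmp3 and Thbs1 were lost in 10, that of Dpt in 9 and that of Dcn in 8.

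How far these calls stand depends on what the arrays are scaled to. The median of all genes moved by up to 0.62 log2 units under the scalings tried, and relative to it the collagen median stayed below 0, between -0.45 and -0.13 in undernourished and between -0.59 and -0.26 in control offspring over 19 settings. Relative to all genes, the fibrillar median stayed between -0.97 and -0.54 in undernourished and between -1.23 and -0.45 in control offspring. A scaling shifts all genes of an array alike and cannot by itself move these relative medians. Scaling to the fibroblast markers also left control CR replicate 4 without values. In control offspring the fibrillar median relative to all genes was -0.90 under it, against -0.79 in the fit used above. Terms for slide or replicate left the relative medians almost unchanged. Their stability over such settings was thus largely fixed in advance and adds no support. With slide as a random block 4 collagens were called in undernourished and 13 in control offspring. Under each of these 19 settings Col2a1 was called lower in both comparisons, Col3a1 lower in control offspring and Col7a1 higher in undernourished offspring. Without the 5 arrays highest in skin markers (control AL replicates 1, 2 and 3, undernourished AL replicate 3 and undernourished CR replicate 2), which leaves 1 control AL array and 3.58% of all genes called, limma called Col2a1, Col3a1 and Col8a1 in control offspring, all lower. That fit takes its spread from the other groups and assumes that the lone control AL array, replicate 4, which stood highest in Col2a1 and Col3a1, varies like them, so that it adds no support for these genes.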

How the data were processed

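Tibialis anterior RNA of 16 pools was hybridised to 1-colour Agilent arrays. Per the file headers, the deposited intensity values are processed signals made with Agilent Feature Extraction 10.5.1.1, background-subtracted and not normalised between arrays. A log2 table deposited by the authors served as an alternative, its normalisation not given in the sources used here. For each array log2 of the intensity minus that of its 75th percentile (388 to 829) was taken, without control spots and outlier spots (53 to 176 per array); 66.4% to 78.5% of spots were well above background and the number of arrays limits the precision. The AL files carry more digits than the CR files. Spots of a probe were averaged, and of the probes of a gene the one with the highest mean signal was used.

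Of 41174 probes, 24844 matched 1 of 17178 symbols by accession in RefSeq (GRCm38.p6), and probes without a symbol entered as they are. Genes that passed the detection filter (4 or more arrays well above background) were fitted with limma 3.58.1 in R 4.3.3, with 4 group means, 12 residual degrees of freedom and Benjamini-Hochberg adjustment over 24826 genes. The procedure was tested on simulated data. Python 3.11.15, pandas 2.3.3 and matplotlib 3.10.9 made tables and figures. Array values are given for up to 4 called members of each collagen type with the largest change, or the member with the highest signal where none was called, and for Col17a1, Col19a1 and Col24a1, which were chosen after their values were seen. Up to 3 called genes of each pathway list with the largest change are named. A gene of the TGF-beta list, which counts among its calls, is not reported here. Members and lists were chosen with earlier results of these data known.

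Same-numbered undernourished AL and control AL arrays deviated together, with correlations of 0.393, 0.123, 0.112 and 0.441. The highest with another number were 0.243, 0.136, 0.000638 and 0.249, for replicate 2 above that with its own number. Same-numbered arrays also share a slide, so the numbers were taken to pair them. The numbers did not pair the other groups. Planned normexp on mean signals could not be run, since the files hold median signals, and normexp (offset 50) on median signals with the median background of each array was added after seeing the data, as were scaling to muscle fibre and fibroblast markers, leaving out control AL replicates 1 and 2 together, every probe on its own, and a replicate block in the AL groups alone.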

Additional observations from a re-analysis of the deposited data

Results flagged for a closer look

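Within groups of 4 arrays, 1 array stood far from the other 3 in 4 of 144 collagen groups examined, by Dixon's criterion, which chance meets in about 1 of 20 groups. Col13a1 stood at -1.98 on undernourished CR replicate 3, with the nearest array at -2.45. Col14a1 stood at 0.677 on the same array, with the nearest at -0.06. Col17a1 stood at -2.33 on undernourished AL replicate 3, with the nearest at -3.52, and that array has the highest skin index of its group, 0.121. Col5a3 stood at 0.98 on undernourished AL replicate 3, with the nearest at 2.17.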

How the results depend on the processing

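In undernourished offspring the 9 collagen calls became 19 with normexp (1 higher, 18 lower), 14 with quantile normalisation, 4 with slide as a random block and 14 with the brain index as a covariate; in control offspring the 16 calls became 10 with both indices and 3 without the 5 arrays highest in skin markers. Leaving out 1 array gave 5 to 11 calls in undernourished offspring (5 without undernourished AL replicate 1), 11 to 18 in control offspring, 0 to 3 for maternal diet in AL offspring (3 without control AL replicate 4, as also with slide as a fixed block), 0 to 1 for the interaction and 0 for the others. Higher and lower calls were 11 and 2 in undernourished and 10 and 4 in control offspring in the authors' deposited table. They were 8 and 2 and 6 and 7 scaled to muscle fibre markers, and 12 and 1 and 7 and 5 scaled to fibroblast markers. The fibroblast scaling left control CR replicate 4 without values, so that this array is missing from that fit. Normexp gave 3 and 19 in control offspring. The replicate block gave 7 and 15 calls, and 0 in the AL groups alone, where it changed no call. Signs turned for Col9a2 in undernourished offspring (0.0528) and Nid1 in control offspring (0.0045), both scaled to fibroblast markers, for Col4a3 (-0.12) and Mmp8 (-0.24) in control and Mmp8 in undernourished offspring (-0.0922) with normexp, and for Itgb1 in control offspring without the 5 arrays (-0.0107). Of 25 collagen calls 4 held under all 19 settings. The cause was not tested.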
